A study of Homo sapiens with 12 samples.

Results

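The 8 genes described here encode the mitochondrial proteins that supply heme synthesis with its substrates and that build iron-sulfur clusters: the carriers and membrane proteins SLC25A38, TMEM14C, ABCB10, FAM210B, SLC25A37 and SLC25A28, and the assembly factors ISCU and GLRX5. They were selected by gene symbol from the 28278 genes of a count table, and all 8 were among the 15805 genes expressed highly enough to be tested. The table came from RNA sequencing of K562, a human erythroleukaemia line. Cells were either wild type (WT) or knocked out for HRG1 (KO), a heme transporter of the endolysosomal membrane encoded by SLC48A1. Each genotype was left untreated or given sodium butyrate, a histone deacetylase inhibitor that drives these cells towards the erythroid lineage. The dose was 0.75 mM at 24 h after plating and again 48 h later, with collection 6 h after the second dose, and the series text places the samples at day 8 of differentiation. Each of the 4 groups held 3 libraries. How many KO clones were used and how the replicates relate to cultures is not given in the sources used here, so p-values measure only the spread between these libraries.

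Heme synthesis starts in the mitochondrial matrix, where glycine and succinyl-CoA are condensed by ALAS, continues in the cytosol, and ends in the mitochondrion, where ferrochelatase (FECH) inserts iron into protoporphyrin. Glycine, porphyrin intermediates and iron must therefore cross the inner membrane. The same iron feeds iron-sulfur clusters, which FECH itself carries and which set the activity of the iron-regulatory protein IRP1. Inherited loss of SLC25A38 or GLRX5 causes sideroblastic anaemia, in which iron accumulates in erythroblast mitochondria.

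Libraries held 19963594 to 30348538 counts. Levels are given as CPM, counts scaled to library size after TMM normalisation, and 3 counts correspond to 0.0989 to 0.150 CPM. SLC48A1 had 58.9 to 83.8 CPM in the 6 WT libraries and 2.94 to 10.1 CPM in the 6 KO libraries. Within each group the library numbered 1 had the highest share of counts on the ribosomal RNA gene RNA28SN5 (2.30% to 5.63% in those 4 libraries, 0.673% to 2.86% in the other 8), and calls on the 8 genes that change without these 4 libraries are given both ways. The summed level of 16 erythroid identity genes, globins included, in WT was 9088 to 20252 CPM without and 29392 to 79371 CPM with butyrate, and in KO 4300 to 7471 CPM without and 5691 to 8381 CPM with it. Of 10 megakaryocyte identity genes, PF4, GP1BB and SELP were at 0 in all 12 libraries, and their sum was 33.5 to 60.9, 118 to 227, 15.6 to 55.4 and 81.6 to 119 CPM in the same order. A list of 12 myeloid and lymphoid identity genes summed in WT to 63.5 to 78.7 CPM without and 55.3 to 88.7 CPM with butyrate. In KO the sum was 14.2 to 33.0 CPM without and 46.7 to 62.6 CPM with it. In bulk RNA, fewer cells of a type and less RNA per cell cannot be told apart.

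The upstream sequences of 4 of the 8 genes are shown because each of these genes differed between genotypes in at least one of the fits described below. Each is the 250 bases before the annotated start in RefSeq (GRCh38.p14), read 5′ to 3′ on the gene's strand. Capitals mark matches on either strand to the E-box CACGTG, the CCAAT box, the GC box GGGCGG, the cAMP response element TGACGTCA, or the GATA-factor words AGATAA and its TGATAA form, each also with a final G.
SLC25A38 (chr3:39383120-39383369, plus strand): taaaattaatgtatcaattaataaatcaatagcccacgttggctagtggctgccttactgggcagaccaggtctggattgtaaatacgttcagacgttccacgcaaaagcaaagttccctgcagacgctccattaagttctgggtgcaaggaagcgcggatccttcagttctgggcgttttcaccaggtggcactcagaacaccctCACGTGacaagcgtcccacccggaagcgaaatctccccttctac
ABCB10 (chr1:229558708-229558957, minus strand): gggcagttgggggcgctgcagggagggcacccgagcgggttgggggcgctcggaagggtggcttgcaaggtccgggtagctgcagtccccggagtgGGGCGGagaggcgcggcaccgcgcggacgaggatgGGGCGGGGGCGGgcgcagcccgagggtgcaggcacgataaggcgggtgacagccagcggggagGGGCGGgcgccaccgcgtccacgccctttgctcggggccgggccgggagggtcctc
FAM210B (chr20:56358724-56358973, plus strand): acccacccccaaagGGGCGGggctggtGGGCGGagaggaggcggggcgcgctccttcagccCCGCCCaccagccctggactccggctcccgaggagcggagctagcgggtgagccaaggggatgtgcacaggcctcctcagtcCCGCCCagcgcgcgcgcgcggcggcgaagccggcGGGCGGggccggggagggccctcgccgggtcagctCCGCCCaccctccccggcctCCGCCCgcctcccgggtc
GLRX5 (chr14:95534800-95535049, plus strand): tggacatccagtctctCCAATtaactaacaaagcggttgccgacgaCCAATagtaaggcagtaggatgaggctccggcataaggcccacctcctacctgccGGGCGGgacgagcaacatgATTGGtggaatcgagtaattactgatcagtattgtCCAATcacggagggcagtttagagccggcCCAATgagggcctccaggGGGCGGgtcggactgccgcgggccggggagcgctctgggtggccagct
RefSeq promoters were matched for 7 of the 8 genes, the exception being SLC25A37. SLC25A38 held 1 E-box, which starts at position -44 from the annotated start, and no GC box. ABCB10 held 4 GC boxes and FAM210B held 7, with a GC content of 77.2% and 79.6%. GLRX5 held 5 CCAAT boxes and 2 GC boxes. None of the 7 windows contained any of the 4 GATA words, which 22.3% of 35116 windows of the same length contained. Across those windows the E-box was found in 6.34%, the CCAAT box in 32.0% and the GC box in 42.6%. The cAMP response element was in 1.65% of windows and, among the 7, in that of ISCU alone. No marked words overlap in the 4 printed windows, while ISCU has an overlapping pair of GC boxes. A match describes letters in the window, not binding.

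Among the 8 genes, the iron importer SLC25A37 was the only one whose rise with butyrate passed the edgeR threshold in both genotypes. SLC25A37 was lower in treated KO than in treated WT cells. FAM210B was also lower in treated KO than in treated WT cells. GLRX5 was higher in KO cells when both treatments were averaged. For SLC25A38, TMEM14C, ABCB10, SLC25A28 and ISCU no comparison passed the threshold of 0.05 on the adjusted p of edgeR's quasi-likelihood test in the fit without a replicate term. With the replicate number as a block, SLC25A38 was lower in treated KO than in treated WT (edgeR adjusted p 0.0242). In that fit ABCB10 was higher in untreated KO than in untreated WT (0.0270). The plot of levels by library shows all values behind these statements.

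**Figure D1:**
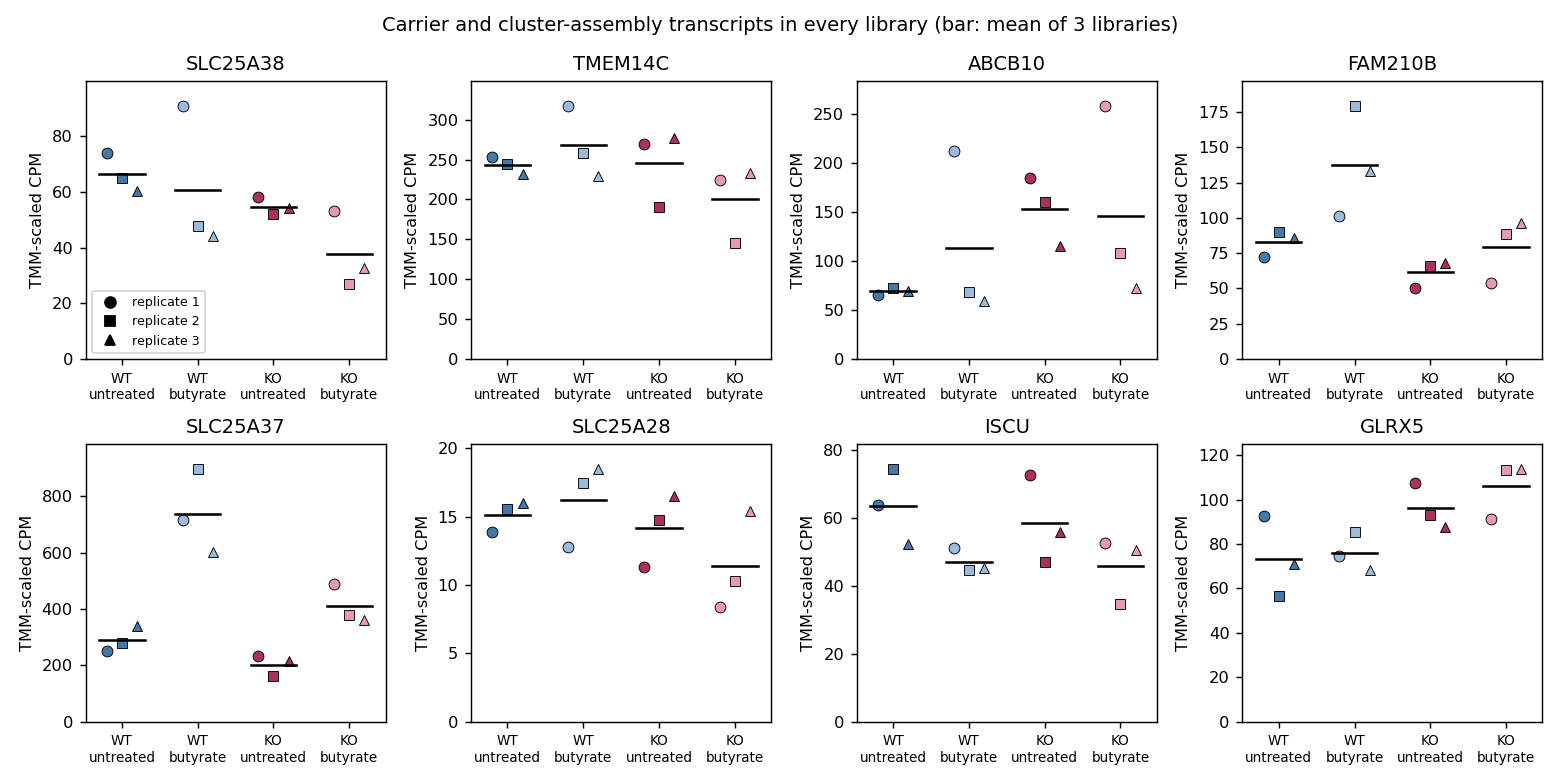
TMM-scaled CPM of each of the 8 genes (vertical axes, linear, starting at 0, scaled separately) in the 4 groups (horizontal axes). Points are libraries, their shapes give the replicate number, and bars are means of 3 libraries; SLC25A37 lies between 602 and 898 CPM in treated WT and between 162 and 341 CPM in all untreated libraries.

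SLC25A38, the carrier that imports glycine into the matrix (chr3:39383370-39397351 in GRCh38.p14), had 74.1, 65.1 and 60.5 CPM in replicates 1, 2 and 3 of untreated WT and 90.8, 47.8 and 44.1 CPM in treated WT. In KO cells it had 58.1, 52.1 and 54.1 CPM untreated and 53.3, 26.8 and 32.6 CPM treated. The untreated KO libraries lay below all untreated WT libraries, and within each treated group replicate 1 stood above the other pair. Group means descended from 66.6 ± 6.92 CPM (SD, n = 3) for untreated WT to 60.9 ± 25.9 for treated WT, 54.8 ± 3.07 for untreated KO and 37.6 ± 13.9 for treated KO, and neighbours in this order overlapped. The KO minus WT difference in treated cells was -0.70 on the log2 scale (SE 0.30), with an edgeR adjusted p of 0.126. It was negative in all 3 same-numbered pairs, at -0.77, -0.83 and -0.44. With the replicate number as a block it was -0.69 and passed (adjusted p 0.0242), as did the difference averaged over treatments, at -0.48 (0.0161) against -0.49 (0.0871) without the block. Without the 4 libraries numbered 1, the treated difference was -0.65 (0.0275) and the averaged one -0.46 (0.0174). The butyrate effect in KO went from -0.54 (0.336) to -0.86 (0.0164), and that averaged over genotypes from -0.34 (0.305) to -0.66 (0.00469). Leaving out single libraries also made the averaged genotype difference pass: -0.60 (0.0447) without replicate 3 of treated WT and -0.66 (0.0208) without replicate 1 of treated KO. Without the latter, the treated difference was -1.03 (0.0353), and without replicate 1 of treated WT the butyrate effect averaged over genotypes was -0.54 (0.0409) in place of -0.34 (0.305).

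TMEM14C, an inner-membrane protein needed for protoporphyrinogen to enter the matrix (chr6:10723070-10731127), had 253, 245 and 232 CPM in untreated WT and 317, 258 and 229 CPM in treated WT. In KO cells the libraries had 269.6, 191 and 277 CPM untreated and 224, 145 and 233 CPM treated. All 4 groups overlapped, with means of 243 ± 10.6, 268 ± 44.7, 246 ± 47.8 and 201 ± 48.5 CPM in that order. The estimate nearest the threshold was KO minus WT in treated cells, at -0.42 (SE 0.22, 95% interval -0.90 to 0.07, edgeR adjusted p 0.229). In untreated cells the interval of the same difference ran from -0.47 to 0.50.

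ABCB10, an inner-membrane ABC transporter that is induced in erythroid maturation and binds mitoferrin-1 (chr1:229516582-229558707), had 65.2, 72.8 and 70.0 CPM in untreated WT and 185, 160.1 and 116 CPM in untreated KO. The highest untreated WT library thus lay below the lowest untreated KO library. In treated cells it had 212, 68.7 and 59.1 CPM in WT and 258, 108 and 72.6 CPM in KO. Replicate 1 was the highest library in both treated groups and in untreated KO, and the treated groups overlapped each other and every other group. Means went from 69.3 ± 3.81 CPM in untreated WT through 113 ± 85.8 in treated WT and 146 ± 98.5 in treated KO to 154 ± 35.1 in untreated KO, and neighbouring groups in this order overlapped. The KO minus WT difference in untreated cells was 1.15 (SE 0.50, 95% interval 0.06 to 2.23), a ratio of 2.21, with an edgeR adjusted p of 0.122. It passed with the replicate block at 1.06 (0.0270), when only the untreated libraries were fitted at 1.14 (0.00256), without the libraries numbered 1 at 0.93 (0.0164) and without replicate 1 of treated WT at 1.12 (0.0383). Averaged over treatments the difference was 0.76 (SE 0.35, adjusted p 0.111), 0.72 with the block (0.0219), 0.70 without the libraries numbered 1 (0.00698) and 1.15 without replicate 1 of treated WT (0.00563). Butyrate gave 0.71 (SE 0.50, 0.504) in WT and -0.07 (SE 0.49, 0.964) in KO, and without the libraries numbered 1 these values were -0.17 (0.692) and -0.62 (0.107). In treated cells the KO minus WT difference was 0.37 (SE 0.49, edgeR adjusted p 0.672), which passed in no setting tried and was -0.32 without replicate 1 of treated KO.

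FAM210B, an inner-membrane protein that erythropoietin induces and that supports mitochondrial iron import and FECH activity (chr20:56358974-56368663), had 72.4, 89.8 and 85.7 CPM in untreated WT and 101, 179 and 133 CPM in treated WT. In KO cells it had 50.3, 66.2 and 67.9 CPM untreated and 54.2, 88.6 and 96.3 CPM treated. Every KO library lay below the lowest treated WT library, and untreated WT and treated WT did not overlap, whereas both KO groups did. The mean was 138 ± 39.2 CPM in treated WT, set apart from 82.7 ± 9.08 in untreated WT, which overlapped with 79.7 ± 22.4 in treated KO and this in turn with 61.5 ± 9.67 in untreated KO. FAM210B was lower in KO in treated cells (log2 difference -0.79, SE 0.26, 0.58 of the WT level, edgeR adjusted p 0.0486) and in the average over treatments (-0.61, SE 0.18, 0.0190).

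The treated difference in FAM210B lay close to the threshold. It held without replicate 1 of treated WT or replicate 3 of treated KO, but the adjusted p was 0.0532 to 0.211 without any single other library of the 12, the largest without replicate 2 of treated WT (-0.55). It was 0.130 with library size alone or when only treated libraries were fitted, 0.0525 with no filter on low counts and 0.0548 when 10 counts were required in all libraries. With the replicate block it was 0.00367. The averaged genotype difference kept its call without 11 of the 12 libraries, the exception again being replicate 2 of treated WT (-0.49, 0.0562), and was -0.58 (0.0535) with library size alone. Butyrate gave 0.74 (SE 0.26, adjusted p 0.152) in WT, 0.71 with the block (0.0232), 0.91 without replicate 1 of treated WT (0.0493) and 0.82 without the libraries numbered 1 (0.0254). In KO it gave 0.38 (SE 0.26, 0.453), and averaged over genotypes 0.56 (SE 0.18, 0.0570) or 0.53 with the block (0.00686). This average passed at 0.63 (0.00743) without the libraries numbered 1, at 0.64 (0.0193) without replicate 1 of treated WT, at 0.66 (0.0207) without replicate 1 of treated KO, and by DESeq2 at 0.58 (0.0288). In each genotype all 3 same-numbered pairs were higher with butyrate, by 0.48 to 1.00 in WT and 0.11 to 0.51 in KO.

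SLC25A37, or mitoferrin-1, the iron importer of erythroid mitochondria (chr8:23528956-23575463), had 251, 279 and 341 CPM in untreated WT and 715, 898 and 602 CPM in treated WT. In KO cells it had 232, 162 and 214 CPM untreated and 488, 379.8 and 363 CPM treated. No library of any group fell within the range of another group. The order was untreated KO (203 ± 36.8), untreated WT (290.3 ± 46.0), treated KO (410.3 ± 68.1) and treated WT (738 ± 149 CPM), and each neighbouring pair was apart. SLC25A37 rose with butyrate by 1.35 in WT (SE 0.22, 2.54-fold, edgeR adjusted p 0.0126) and by 1.02 in KO (SE 0.22, 2.02-fold, 0.0303). All 6 same-numbered pairs were higher with butyrate, by 0.76 to 1.69. The difference between these effects was -0.33 (SE 0.31, 95% interval -1.01 to 0.35, adjusted p 1.00), so no difference in response was found.

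KO cells had less SLC25A37 than WT cells when treated (log2 difference -0.85, SE 0.22, 0.56 of the WT level, edgeR adjusted p 0.0185) and in the average over treatments (-0.68, SE 0.16, 0.00444). In untreated cells the difference was -0.52 (SE 0.22, 0.116). The averaged butyrate effect (1.18, SE 0.16, 0.000912) and the averaged genotype effect passed without any one of the 12 libraries. The single contrasts were less stable: the WT rise did not pass without replicate 1 or 2 of untreated WT (0.0713 and 0.0710) or replicate 2 of treated WT (0.0564). The KO rise did not pass without replicate 1, 2 or 3 of untreated KO (0.0776, 0.152 and 0.0691) or replicate 1 or 2 of treated KO (0.0588 and 0.0943). The treated genotype difference did not pass without replicate 2 of treated WT (0.0862) or replicate 2 or 3 of treated KO (0.0612 and 0.0614). Fitted on the compared libraries only, the WT rise had an adjusted p of 0.0558 and the treated genotype difference one of 0.0642. The summed level of the erythroid identity genes, given above, was likewise higher in treated than in untreated WT and lower in KO than in WT with no overlap, and its part in these differences was not tested.

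SLC25A28, or mitoferrin-2, the iron importer of other cell types (chr10:99610522-99659286), had 13.9, 15.5 and 16.03 CPM in untreated WT and 12.8, 17.4 and 18.5 CPM in treated WT. The KO libraries had 11.3, 14.8 and 16.5 CPM untreated and 8.40, 10.3 and 15.4 CPM treated. All groups overlapped, and replicate 1 was the lowest library in each of the 4. Means were 15.1 ± 1.14, 16.2 ± 3.03, 14.2 ± 2.66 and 11.4 ± 3.64 CPM in the order untreated WT, treated WT, untreated KO and treated KO. The largest difference was KO minus WT in treated cells, at -0.51 (SE 0.28, 95% interval -1.12 to 0.09, edgeR adjusted p 0.235). Butyrate gave 0.10 in WT (interval -0.50 to 0.71) and -0.32 in KO (interval -0.93 to 0.29).

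Dividing the counts of one mitoferrin by those of the other within each library removes the scaling between libraries, although the level of such a ratio also depends on gene length. The SLC25A37 to SLC25A28 ratio was 18.1, 18.0 and 21.3 in untreated WT and 55.9, 51.5 and 32.6 in treated WT. In KO cells it was 20.6, 10.9 and 13.0 untreated and 58.1, 37.0 and 23.5 treated. All 6 treated libraries exceeded all 6 untreated libraries. The butyrate effect on the ratio, with labels exchanged within genotype, was 1.31 on the log2 scale (2.48-fold), with a two-sided exact permutation p of 0.005, the smallest that 400 arrangements allow, and an adjusted p of 0.03 over 6 ratio tests. Within same-numbered pairs the smallest possible exact p rises to 0.03125, and the adjusted p was 0.0938. It was 0.06 without replicate 1 of treated KO (1.15), replicate 2 of untreated KO (1.22) or replicate 3 of untreated KO (1.28). The genotype effect on the ratio was -0.36 (exact permutation p 0.195, adjusted p 0.39).

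FAM210B was set against its paralog FAM210A, and TMEM14C against its neighbour and paralog TMEM14B, in the same way. The FAM210B to FAM210A ratio in WT averaged 2.996 ± 0.884 without and 6.12 ± 3.39 with butyrate, and in KO 4.06 ± 0.870 and 6.64 ± 3.09. Its butyrate effect was 0.75 (exact permutation p 0.065, adjusted p 0.195), and its genotype effect 0.31 (p 0.38, adjusted p 0.48). Within same-numbered pairs the exact permutation p of the butyrate effect was 0.03125, the smallest possible, and the adjusted p was 0.0938, as for the mitoferrin ratio. FAM210A itself was lower in KO in the average over treatments (-0.96, SE 0.21, edgeR adjusted p 0.00327), as FAM210B was. The TMEM14C to TMEM14B ratio averaged between 1.30 and 1.455 in the 4 groups, with a butyrate effect of -0.10 (exact permutation p 0.4, adjusted p 0.48) and a genotype effect of 0.04 (p 0.715). Reads shared between paralogs could enter either gene, since the handling of such reads is not given in the sources used here.

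**Figure D2:**
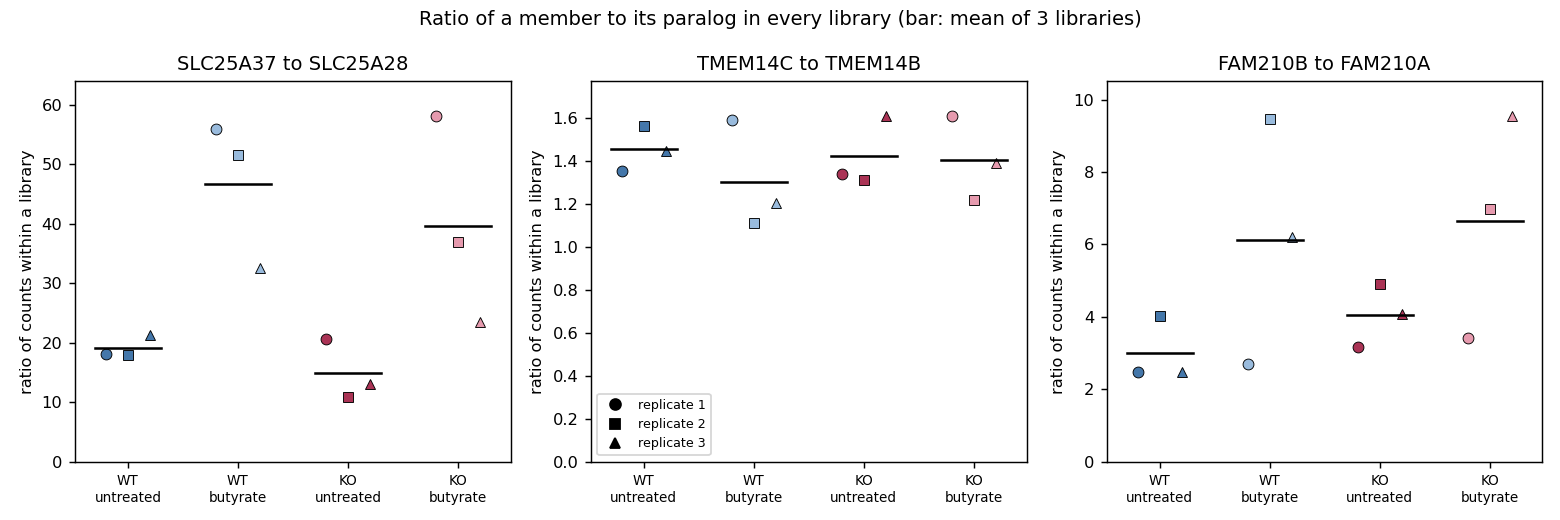
Ratio of the counts of 3 genes to those of a paralog within each library (vertical axes, linear, starting at 0) by group (horizontal axes), with points for libraries, shapes for replicate numbers and bars for means of 3. Treated libraries of both genotypes lie at 23.5 or above for SLC25A37 to SLC25A28 and untreated ones at 21.3 or below, while the TMEM14C to TMEM14B groups overlap.

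ISCU, the scaffold on which iron-sulfur clusters are assembled (chr12:108561463-108569384), had 63.9, 74.5 and 52.5 CPM in untreated WT and 51.3, 44.6 and 45.4 CPM in treated WT. The KO libraries had 72.7, 47.1 and 56.02 CPM untreated and 52.6, 34.7 and 50.6 CPM treated. Treated WT lay wholly below untreated WT, the KO groups overlapped, and all 6 same-numbered pairs were lower with butyrate. Means were 63.7 ± 11.01 and 58.6 ± 13.0 CPM in untreated WT and KO and 47.1 ± 3.62 and 46.0 ± 9.81 CPM in treated WT and KO, and neighbours in this order overlapped. The butyrate effect was -0.43 in WT (SE 0.22, edgeR adjusted p 0.334), -0.35 in KO (SE 0.22, 0.417) and -0.39 averaged (SE 0.16, 95% interval -0.73 to -0.05, adjusted p 0.113), none of which passed. Genotype differences were -0.12 untreated and -0.04 treated, with intervals from -0.60 to 0.36 and from -0.52 to 0.45.

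GLRX5, the glutaredoxin that passes clusters from the scaffold to target proteins (chr14:95535050-95544714), had 92.6, 56.7 and 70.9 CPM in untreated WT and 74.5, 85.4 and 68.2 CPM in treated WT. In KO cells it had 107.6, 93.2 and 87.7 CPM untreated and 91.2, 113.5 and 113.8 CPM treated. Every treated KO library exceeded every treated WT library, and among the WT libraries only replicate 1 of untreated WT reached the range of untreated KO. The WT means of 73.4 ± 18.1 untreated and 76.0 ± 8.71 CPM treated overlapped, the KO means of 96.2 ± 10.3 untreated and 106 ± 12.9 CPM treated overlapped, and untreated KO was apart from treated WT. GLRX5 was higher in KO by 0.44 in the average over treatments (SE 0.14, 1.35-fold, edgeR adjusted p 0.0301), and in all 6 same-numbered pairs. The untreated (0.39, SE 0.20, 0.196) and treated (0.48, SE 0.20, 0.1202) differences did not pass alone. The averaged difference lost its call without replicate 2 or 3 of untreated WT, 1 or 3 of treated WT, 1 or 2 of untreated KO, or 2 or 3 of treated KO, with values from 0.36 to 0.42 and adjusted p from 0.0513 to 0.0817. Butyrate effects were 0.05 in WT and 0.14 in KO, with intervals from -0.39 to 0.49 and from -0.29 to 0.58.

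GLRX5 lies on chromosome 14, where 396 of 475 tested genes (83.4%) had a higher estimate in KO and 237 (49.9%) passed as higher, against 19% of all tested genes that passed as higher. The median genotype difference of the chromosome was 0.60 and that of the 40 tested genes nearest to GLRX5 was 0.51, so GLRX5 lay 0.17 below the chromosome's median. SLC25A38 (-0.49) lay below the median of chromosome 3 (0.45), while its 40 nearest tested genes had a median of -0.23, and 27 of those 40 had a lower estimate in KO. FAM210A lies on chromosome 18, whose median was -0.60. For FAM210B and SLC25A37 the chromosome medians were 0.08 and -0.11, and those of the 40 nearest genes were -0.19 and 0.14. The median over all tested genes was 0.0056. Gene dose was not measured, and its part in these differences was not tested.

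**Figure D3:**
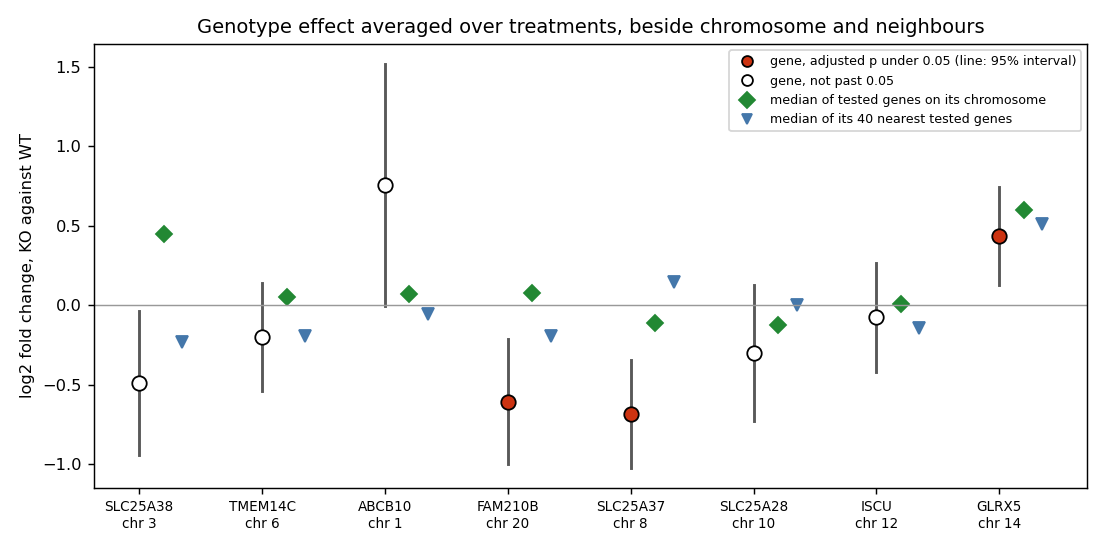
KO minus WT log2 difference averaged over treatments (vertical axis) for each of the 8 genes (horizontal axis, with chromosome), as circles with 95% intervals, red where the adjusted p was under 0.05. Diamonds are medians of the tested genes on the chromosome and triangles medians of the 40 nearest tested genes; for GLRX5 both medians (0.60 and 0.51) are above 0 with the gene itself (0.44), while for SLC25A37 (-0.68) they are -0.11 and 0.14.

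With butyrate in WT, 1 of the 8 genes passed the edgeR test, beside 2.35% of all tested genes, and the members' median change was 0.12 against 0.02 over all tested genes. In KO, 1 of 8 passed beside 3.4% of all genes, with medians of -0.18 and 0. Between untreated KO and WT, 0 of 8 passed in edgeR and 0 in DESeq2, 2 had an unadjusted p under 0.05 (ABCB10 and SLC25A37), beside 34.6% of all genes, and 22.6% of all genes passed. Between treated KO and WT, 2 of 8 passed beside 19% of all genes, and the medians were -0.46 and -0.0022. Averaged over treatments, 3 of 8 differed by genotype, a share near the 36.6% of all genes, and 5 of 8 did with the replicate block, beside 46.7% of all genes in that fit. Averaged over genotypes, 1 of 8 changed with butyrate beside 14.6% of all genes. The genotype contrast in treated cells and the butyrate contrast in WT share the treated WT libraries. Each single butyrate contrast likewise shares a group with each single genotype contrast. The butyrate contrasts in WT and KO share no libraries, nor do the untreated and treated genotype contrasts. The averaged contrasts use all libraries.

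Groups that did not overlap were seen for 3 genes with butyrate in WT (FAM210B and SLC25A37 higher, ISCU lower) beside 21.7% of all genes, and for SLC25A37 in KO beside 24.4%. Between untreated genotypes they were seen for 4 genes (SLC25A38, FAM210B and SLC25A37 lower, ABCB10 higher) beside 42.3%, and between treated genotypes for 3 (FAM210B and SLC25A37 lower, GLRX5 higher) beside 33.9%. The difference between the butyrate effects of KO and WT ranged from -0.78 for ABCB10 to 0.09 for GLRX5, and all 8 adjusted p were 1.00. None of the 8 had an unadjusted p under 0.05 and none passed in DESeq2. Over all genes 0 passed in edgeR, 658 (4.16%) had an unadjusted p under 0.05, and 81 passed in DESeq2. The share of all genes called in edgeR was thus 0%.

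**Figure D4:**
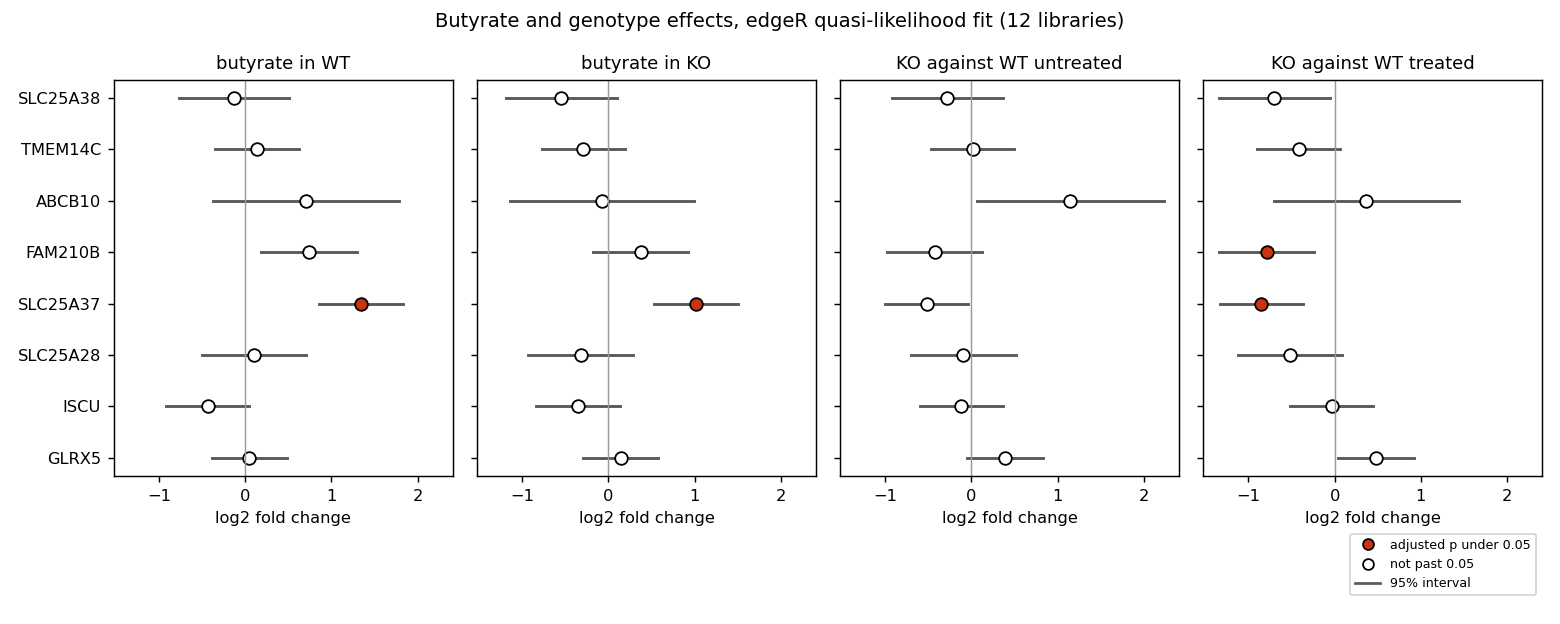
Log2 fold changes of the 8 genes (horizontal axes, with 95% intervals as lines) in 4 contrasts from the edgeR fit on 12 libraries; filled red circles have an adjusted p under 0.05. SLC25A37 is at 1.35 and 1.02 in the butyrate panels and at -0.85 in treated KO against WT, where FAM210B is at -0.79.

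Other genes of the mitochondrial steps of heme synthesis were counted in the same way. Of 16 enzymes and partner proteins, 2 rose with butyrate in WT, where 2.35% of all tested genes passed: ALAS2, the erythroid enzyme of the first step (24.0 ± 14.2 to 193 ± 54.9 CPM, log2 change 3.00), and SLC25A39, a mitochondrial glutathione importer (0.83). The median of the 16 was 0.54, and 11 had an unadjusted p under 0.05, beside 18% of all tested genes. In KO 0 of 16 passed in edgeR, 6 had an unadjusted p under 0.05, beside 19.8% of all tested genes, and the median was 0.17. ALAS2 and FLVCR1, a membrane transporter with a mitochondrial isoform, were higher in untreated KO than in untreated WT (2.91 and 0.80), and SLC25A39 and FECH were lower in treated KO than in treated WT (-0.63 and -1.002). Over all tested genes, 11.7% passed as higher in untreated KO and 8.89% as lower in treated KO. In the average over genotypes 6 rose with butyrate and 2 fell, the falls being CLPX (-0.55), a chaperone that activates ALAS, and PGRMC1 (-0.61), a heme-binding partner of FECH. Over all tested genes, 9.22% rose and 5.37% fell in that average.

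Of 20 other mitochondrial iron-sulfur assembly genes, 0 passed with butyrate in either genotype in edgeR, and 2 in WT and 5 in KO had an unadjusted p under 0.05, beside the same 18% and 19.8% of all tested genes. Estimates were below 0 for 16 of 20 in WT and 18 of 20 in KO, with medians of -0.28 and -0.38. Averaged over genotypes LYRM4 (-0.61), a partner of the cysteine desulfurase NFS1, NFU1 (-0.55), a carrier of assembled clusters, and NUBPL (-0.73), which serves complex I, fell with butyrate. These were 3 of the 20, beside 5.37% of all tested genes that passed as lower. In a list of 16 genes of mitochondrial content, 16 of 16 estimates were below 0 in WT (median -0.33) and 15 of 16 in KO (-0.35), with 0 passing in edgeR and 2 and 4 at an unadjusted p under 0.05. The summed level of that list in WT was 4336 to 5362 CPM without and 3286 to 4866 CPM with butyrate, and in KO 5339 to 7181 and 4069 to 5031 CPM, and its part in the values of ISCU was not tested.

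By genotype, averaged over treatments, 4 of these 20 assembly genes were higher in KO and 2 lower, with a median of -0.0026. Over all tested genes, 19% passed as higher and 17.5% as lower. NUBPL (1.06) and ISCA2 (0.74), which helps to make 4Fe-4S clusters, lie with GLRX5 on chromosome 14, and they were the only list members there. LYRM4 (0.63) was higher as well, and FDXR (-1.28), the reductase that supplies electrons to cluster assembly, and BOLA3 (-0.49) were lower. BOLA1 had 0.237 ± 0.0866 CPM in untreated WT and 6.40 ± 1.06 CPM in untreated KO. Of 12 cytosolic iron-sulfur assembly genes, 10 were tested, and 0 passed in edgeR in any of the 4 single contrasts. In each, 1 or 2 had an unadjusted p under 0.05, beside 18% to 34.6% of all tested genes. In the averages, GLRX3 (-0.52) and CIAO2A (-0.58) fell with butyrate, and NDOR1 (-0.43) and CIAO1 (-0.34) were lower in KO. These were 2 of 10 in each average, beside 5.37% and 17.5% of all tested genes that passed as lower.

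Among the 9 tested paralogs of the 8 genes, 1 was higher in KO in the average over treatments, TMEM14A (1.31), and 4 were lower: SLC25A40 (-1.26), FAM210A (-0.96), ABCB8 (-0.64) and SLC25A39 (-0.50). Over all tested genes, 19% passed as higher and 17.5% as lower. With butyrate in the average over genotypes, SLC25A39 (0.70) and TMEM14A (0.78) rose and GLRX3 (-0.52) fell, beside 9.22% and 5.37% of all tested genes.

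Across the 12 libraries the log2 CPM of FAM210B and SLC25A37 correlated at a Pearson r of 0.72, and that of SLC25A38 and TMEM14C at 0.75, the highest of the 28 pairs among the 8 genes. The lowest was -0.74 for ABCB10 and SLC25A28. These values describe libraries that share groups and replicate numbers. The tested genes most like SLC25A37 were TMEM63B (0.98) and ACSL6 (0.95), those most like FAM210B were PVRIG (0.98) and ZFYVE27 (0.95), and those most like ABCB10 were STRN3 and SUMF1 (both 0.97). SLC25A38 was nearest to HMGB2 (0.98) and NR1H2 (0.96), TMEM14C to the ribosomal protein genes RPS13 (0.93) and RPS14 (0.91), and SLC25A28 to ZNF558 (0.93) and CTTN (0.92). ISCU was nearest to COX8A (0.92), a subunit of a respiratory complex, and GLRX5 to DRG2 (0.94) and KNOP1 (0.93).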

How the data were processed

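The deposited table holds whole-number counts per gene symbol for 12 libraries, with 0 unused columns. Per the submitters' processing notes, STAR 2.7.11b, FastQC 0.12.1 and hg38 were used by the authors, and the counting tool, annotation and use of strand are not given in the sources used here, so overlapping genes may share reads. The deposited counts went unaltered into edgeR 4.0.16 under R 4.3.3 (filterByExpr, minimum count 10, TMM, quasi-likelihood F-test with 1 mean per group over 12 libraries, Benjamini-Hochberg over 15805 genes, threshold 0.05). SE is the log2 change divided by the square root of F, and log2 CPM used a prior count of 2. Alternatives were DESeq2 1.42.0, other scalings and filters, fewer libraries and the replicate number as a block. The scripts were tested on simulated data. The 8 genes and all lists were chosen with earlier results of these data known. All 8 are named, and of other lists the genes past the threshold (at most 3 per direction) or any gene of a list of 20 or fewer, with the 2 genes most correlated with each of the 8, except that a few single-gene values are left unreported.

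Same-numbered libraries deviated together from their group means, with correlations over genes of 0.195 to 0.409 (butyrate, WT), 0.147 to 0.468 (butyrate, KO), 0.210 to 0.361 (genotype, untreated) and 0.315 to 0.595 (genotype, treated). For other pairs the highest was 0.186, 0.123, 0.0692 and 0.343. The block fits and the same-numbered pairs therefore take the numbers to pair the samples, from the data and not from the labels. The main p-values come from tests without a replicate term and do not use this pairing. No 2 libraries of a group agreed within sampling noise (lowest chi-square per degree of freedom 39.7). Values after ± are SDs over the 3 libraries of a group.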

Additional observations from a re-analysis of the deposited data

How the results depend on the processing

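The number of the 8 genes that passed moved with the setting, and the cause was not tested. With the replicate block it was 2 in place of 1 for butyrate in WT and for averaged butyrate, 1 in place of 0 for untreated genotype, 3 in place of 2 for treated genotype, and 5 in place of 3 for averaged genotype. The share of all genes that passed with the block was 8.61% and 26.5% for these butyrate contrasts and 33%, 29.2% and 46.7% for the genotype contrasts in that order. Fitting only the compared libraries gave 0 in place of 1 for butyrate in WT, 1 in place of 0 for untreated genotype and 0 in place of 2 for treated genotype. Treated genotype gave 1 in place of 2 with library size alone, with no filter, or when 10 counts were required in all libraries. Averaged butyrate gave 2 in place of 1 under that last filter and with DESeq2. Leaving out single libraries gave 0 to 2 for butyrate in WT, 0 to 1 in KO, 0 to 1 for untreated genotype, 0 to 2 for treated genotype, 1 to 3 for averaged butyrate and 2 to 4 for averaged genotype, and leaving out the 4 numbered 1 gave 2, 2, 1, 3, 3 and 5. Without those 4 libraries, the share of all genes that passed was 11.4% and 13.1% for butyrate in WT and KO. It was 26.2% and 24.7% for untreated and treated genotype, and 28.8% and 41.2% for averaged butyrate and averaged genotype. The interaction count stayed at 0 in all these settings. The block changed no other call of the 8 genes than those given with them above. The SLC25A37 to SLC25A28 butyrate ratio (1.31) had an exact permutation adjusted p of 0.0938 with the block. It ranged from 1.15 to 1.48 without single libraries. Without the 4 libraries numbered 1 it was 1.19 (0.167). That setting has too few arrangements for any exact p under 0.05, so the loss of the call there was fixed in advance. The TMEM14C to TMEM14B genotype ratio ranged from -0.012 to 0.12.

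Several estimates that never passed changed sign. TMEM14C in untreated KO against WT (0.01) was -0.015 with RLE scaling and with DESeq2, -0.013 with library size alone and when 10 counts were required, -0.0082 with the block and -0.045 without the libraries numbered 1. ABCB10 with butyrate in KO was 0.034 with library size alone and 0.0044 when 10 counts were required, and ISCU in treated KO against WT was 0.053 with library size alone. Without the libraries numbered 1, ABCB10 was -0.17 with butyrate in WT and -0.40 averaged. Without single libraries, butyrate in WT ranged from -0.11 to 0.25 for GLRX5, -0.0094 to 0.24 for TMEM14C, -0.13 to 1.01 for ABCB10, -0.54 to 0.055 for SLC25A38 and -0.0027 to 0.24 for SLC25A28, and butyrate in KO from -0.77 to 0.27 for ABCB10. Untreated genotype ranged from -0.30 to 0.012 for ISCU, -0.11 to 0.14 for TMEM14C and -0.25 to 0.05 for SLC25A28 (0.0502 without replicate 1 of untreated KO), and treated genotype from -0.14 to 0.11 for ISCU and -0.32 to 1.18 for ABCB10. Averaged butyrate ranged from -0.094 to 0.49 for ABCB10 and -0.15 to 0.018 for TMEM14C. The interaction ranged from -0.11 to 0.25 for GLRX5, -0.046 to 0.27 for ISCU, -0.75 to 0.0063 for SLC25A38 and -1.47 to 0.067 for ABCB10. Over all genes, calls ranged from 43 to 1884 for butyrate in WT and from 48 to 2164 in KO over these settings. They ranged from 2334 to 5217 for untreated genotype and from 1802 to 4612 for treated genotype. For averaged butyrate they ranged from 1198 to 4735, and for averaged genotype from 4142 to 7381. Each group has 3 libraries, which limits the precision of every difference.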

Other observations

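Of 52 other SLC25 genes, 44 were tested, and in the average over treatments 8 were higher and 9 lower in KO (edgeR), beside 19% and 17.5% of all tested genes, with a median of -0.11 against 0.0056 over all tested genes. SLC25A26, which imports S-adenosylmethionine into mitochondria, had 5.59 ± 0.881 CPM in untreated WT and 31.1 ± 3.88 CPM in untreated KO, and 2.34 ± 0.471 and 17.0 ± 6.00 CPM in treated WT and KO, a log2 difference of 2.67 (SE 0.22, edgeR adjusted p 1.85e-06). SLC25A29, a carrier of basic amino acids, was higher in KO by 1.45 (SE 0.25, edgeR adjusted p 0.000638). It rose with butyrate in the average over genotypes by 1.61 (SE 0.25, edgeR adjusted p 0.00215). In KO it went from 34.0 ± 21.8 to 125 ± 33.6 CPM (1.88, SE 0.35, edgeR adjusted p 0.0179) and in WT from 15.1 ± 0.859 to 38.0 ± 3.57 CPM (1.34, SE 0.35, edgeR adjusted p 0.0710). With butyrate, 1 of the 44 passed in WT (SLC25A39) and 1 in KO (SLC25A29), beside 2.35% and 3.4% of all tested genes.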
